A study of Mus musculus with 9 samples.

Results

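Type I interferon-stimulated genes were examined in monocytes from mouse spleen after vancomycin gavage with and without the bacterial lipid L654. They were 46 genes chosen by symbol from general knowledge of the interferon response, with earlier results of these data known. All 46 were found among the 46072 genes of the deposited tables, of which 26108 were detected in at least 1 of 9 libraries. The 9 libraries came from 3 groups of 3 libraries, all from young adult female C57BL/6 mice for which no altered allele is given. Con mice received water by gavage for 6 days, Van mice received vancomycin, an antibiotic that acts mainly within the gut, at 2 mg per day for 6 days, and VanLip mice received the same vancomycin course. All groups then rested without antibiotic for 6 to 8 days by the labels, and for 8 days in the study's account of the sequenced mice, and the VanLip mice were injected retro-orbitally with L654 on days 7, 9 and 11. L654 is a serine-glycine dipeptide lipid of Porphyromonas gingivalis that is recognised through the receptor TLR2. The labels of these libraries give no vehicle injection for the Con and Van mice. Monocytes were taken from the spleen by magnetic depletion of other cells and were not stimulated in culture, so RNA of other spleen cells could remain in a library. The study's methods give 3 mice in each group for sequencing and combine 2 spleens before monocyte isolation for its culture assays, and whether spleens were combined for these libraries is not given in the sources used here.

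Type I interferons are secreted proteins that bind a receptor made of Ifnar1 and Ifnar2 on almost every nucleated cell. The kinases Jak1 and Tyk2 then activate transcription factors, among them Stat2, which with Irf9 is part of a complex that binds interferon-stimulated response elements in promoters and switches on antiviral genes. Monocytes transcribe many of these genes at a basal level in the absence of infection, and signals from gut bacteria are among the known sources of this tone. Some of the 46 genes, such as the GTPase gene Ifi47, also respond to interferon gamma, so the list does not mark type I interferon alone.

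Totals of the deposited expected counts ranged from 43070361 to 61383806 for Con and Van and, for VanLip, from 170503470 to 184720704. The commonest low count, which gives the size of 1 read, was 1.33 in the Con and Van libraries and 2.00 in the VanLip libraries, so depth and read size cannot be told apart from the VanLip group. Converted to fragments by that read size, the totals were 16151385 to 23018927 in Con and Van and 42625868 to 46180176 in VanLip, a smaller gap than that of the expected counts. Summed FPKM (fragments scaled to transcript length and to the mapped fragments of the library) of 6 monocyte markers was between 7773 and 10468, while 5 natural killer cell markers were each under 1 FPKM in every library and the sums of 5 B cell and 5 T cell markers reached 12.4 and 3.90 FPKM. The erythroid sum was 56.8 to 114 in Con, 189 to 429.5 in Van and 155 to 639.6 in VanLip, led by the globin genes. The largest sum of another cell type was that of 5 red pulp macrophage markers (C1qa, C1qb, Vcam1, Adgre1 and Spic), at 698 to 815 FPKM in Con, 872 to 1093 in Van and 650 to 912 in VanLip.

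The 46 genes were well represented in these cells. Their median level over all libraries was 25.0 FPKM, against 0.547 for all detected genes, and 41 of the 46 were at 10 FPKM or more. Ifitm3, which restricts virus entry at the endosome, was highest at 1203 FPKM, followed by its relatives Ifitm2 at 568 and Ifitm6 at 322 and by Ifi27l2a at 319. Ifi44 was lowest at 1.53. The monocytes therefore carried antiviral transcripts in all groups, including Con.

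Promoter windows of 300 bases, from 250 before to 50 after the transcription start, were matched in RefSeq on GRCm38.p6 for 36 of the 46 genes. The core repeat of the interferon-stimulated response element, GAAANNGAAA on either strand (reverse complement TTTCNNTTTC, overlapping matches counted), was in the windows of 16 of the 36, which is 44.4%, against 3.99% of the 27025 gene symbols with a window. The part of 5 windows that lies before the start is shown, from base 250 to base 1 before it for the first 3 and to base 31 before it for the last 2. Ifit3, Isg15 and Rsad2 are shown as windows with the repeat, and Ifitm6 and Trim25 as called members without it. The repeat did not go with the pattern over the libraries in every gene, since the windows of Ifitm2 and Bst2 hold it and their levels had correlations of -0.64 and 0.40 with the mean of the other members. Capitals mark the repeat.
Ifit3, chr19:34583279-34583528, plus strand: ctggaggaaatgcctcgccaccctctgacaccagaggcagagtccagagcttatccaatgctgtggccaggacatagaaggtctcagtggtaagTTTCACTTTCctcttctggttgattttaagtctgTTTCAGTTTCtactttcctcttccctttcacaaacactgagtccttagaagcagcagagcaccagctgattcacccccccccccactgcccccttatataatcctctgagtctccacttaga
Isg15, chr4:156200819-156201068, minus strand: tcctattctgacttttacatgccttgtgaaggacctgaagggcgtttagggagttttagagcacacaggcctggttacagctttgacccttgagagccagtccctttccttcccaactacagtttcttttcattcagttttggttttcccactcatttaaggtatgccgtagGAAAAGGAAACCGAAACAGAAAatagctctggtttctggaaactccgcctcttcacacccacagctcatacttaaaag
Rsad2, chr12:26456453-26456702, minus strand: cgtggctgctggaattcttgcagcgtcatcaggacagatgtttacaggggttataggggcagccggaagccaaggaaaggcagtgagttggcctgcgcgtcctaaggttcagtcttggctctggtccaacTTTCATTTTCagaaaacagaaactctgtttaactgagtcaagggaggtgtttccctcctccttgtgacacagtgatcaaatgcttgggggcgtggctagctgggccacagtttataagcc
Ifitm6, chr7:141016923-141017142, minus strand: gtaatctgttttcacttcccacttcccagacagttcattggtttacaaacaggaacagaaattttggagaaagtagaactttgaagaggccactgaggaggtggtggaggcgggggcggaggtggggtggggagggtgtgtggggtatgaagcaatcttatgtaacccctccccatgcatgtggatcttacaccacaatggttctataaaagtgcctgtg
Trim25, chr11:88999153-88999372, plus strand: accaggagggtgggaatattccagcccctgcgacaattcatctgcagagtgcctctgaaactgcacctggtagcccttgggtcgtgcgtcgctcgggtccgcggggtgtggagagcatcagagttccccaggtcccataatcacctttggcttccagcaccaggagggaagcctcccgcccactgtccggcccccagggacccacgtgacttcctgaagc
The window of Isg15 holds 3 overlapping matches in 1 run and that of Ifit3 holds 2 separate ones on the opposite strand. The repeat of Rsad2 is 1 match, also on the opposite strand. The start of Ifitm6 in RefSeq lies inside the longer gene model whose coordinates are given for that gene in this text. A match is a description of the letters and not a bound site.

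The first comparison asked how the genes differed after vancomycin and rest. Most of them were slightly lower in Van than in Con: 40 of 46 had a negative log2 fold change and the median was -0.21, against -0.01 and 51.2% of genes lower over all genes tested. Few passed the test. With DESeq2 and Benjamini-Hochberg adjustment over all genes, Ifitm6 and Mx1 fell and no member rose, so that 2 of 46 (4.35%) were called, where 4.33% of all genes tested were called and 2.06% were called lower. In 24 of the 46 genes every Van library lay below every Con library in FPKM, against 9.80% of the 13503 genes whose normalized counts averaged 50 or more, and in 1 gene, Trim25, every Van library lay above, against 12.7%. In bulk RNA, fewer cells that express a gene and less RNA per cell cannot be told apart, and the p-values measure only the spread between these libraries. The erythroid and the red pulp macrophage sums were each higher in every Van library than in every Con library. The T cell sum was lower in every Van library (2.12 to 3.01 FPKM) than in every Con library (3.45 to 3.88). The part of these sums in the differences was not tested.

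Ifitm6 (ENSMUSG00000059108, GRCm38 chromosome 7, 141015699 to 141017924, minus strand) encodes a myeloid member of the interferon-induced transmembrane family. Its FPKM was 343, 353 and 361 in the Con libraries, 233, 246 and 236 in the Van libraries and 467, 326 and 333 in the VanLip libraries. The Van libraries were tightly grouped and lay below all other libraries. With means of 352 ± 8.77 for Con and 238 ± 6.95 for Van (SD of 3 libraries), the log2 fold change was -0.57 (standard error, SE, 0.13, DESeq2 adjusted p = 0.000792).

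Mx1 (ENSMUSG00000000386, chromosome 16, 97447035 to 97462907, minus strand) encodes a dynamin-like GTPase that blocks influenza virus, and it carries an inactivating deletion in most laboratory mice. It was at 25.7, 28.9 and 29.6 FPKM in Con, 19.7, 20.4 and 22.1 in Van and 25.0, 23.1 and 33.5 in VanLip. All 3 Van libraries were lower than the other 6. The log2 fold change for Van against Con was -0.41 (SE 0.13, DESeq2 adjusted p = 0.0403). This call was lost when any 1 Con or Van library was left out, with adjusted p between 0.0618 and 0.205.

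The edgeR quasi-likelihood test, as another test of the same counts, called 0 of the 46 members for Van against Con (1.21% of all genes called) and had 11 members at an unadjusted p under 0.05 (14.7% of all genes), with an adjusted p of 0.0619 for Ifitm6 and 0.156 for Mx1. DESeq2 had 12 members at an unadjusted p under 0.05, where 14.9% of all genes were. The median log2 fold change was -0.21 in both, and since both used the same counts this is no independent support for its direction.

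**Figure D1:**
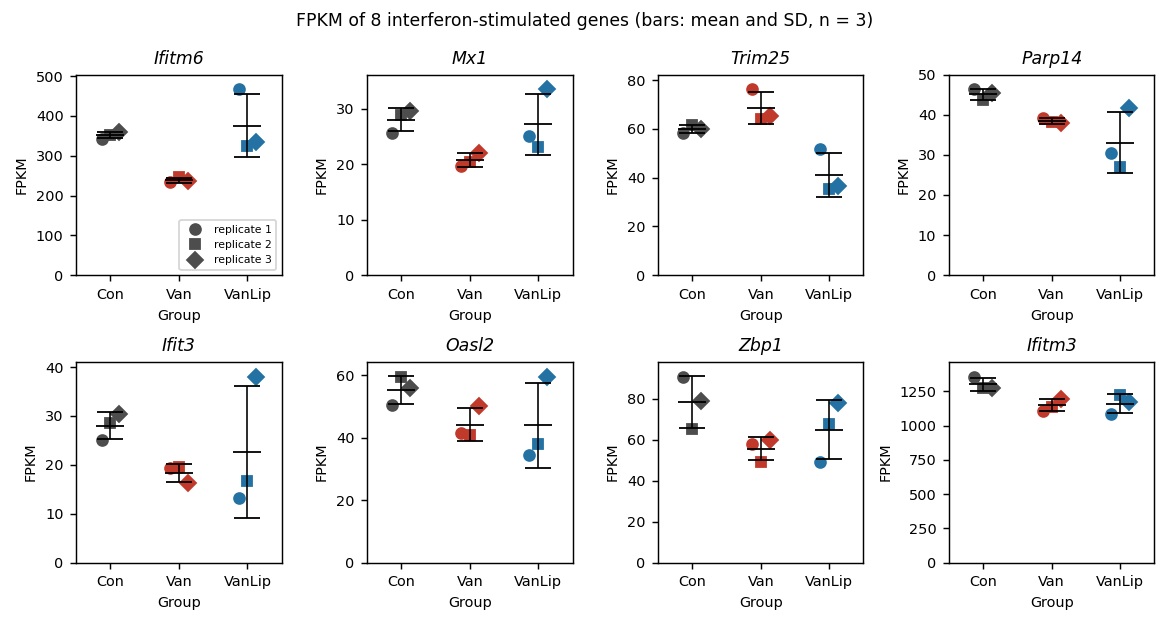
FPKM (vertical axes, from 0) of 8 interferon-stimulated genes in each library of the Con, Van and VanLip groups (horizontal axes). Points are libraries with the symbol giving the replicate number, and bars show the mean and SD of 3 libraries. Ifitm6 and Mx1 were lower in every Van library than in every other library, Trim25 was lower in every VanLip library, and in Ifit3 the third VanLip library lay at 38.0 against 13.2 and 16.7.

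Among genes of viral RNA sensing, none was called for Van against Con (4.33% of all genes). Zbp1, a sensor of Z-form nucleic acid that can start necroptosis, had the highest level and the log2 fold change furthest from 0. It was at 90.8, 65.4 and 78.8 FPKM in Con, 57.9, 49.4 and 59.8 in Van and 49.2, 67.6 and 77.8 in VanLip. Con and Van did not overlap and VanLip spanned both, and the log2 fold change for Van against Con was -0.46 (SE 0.16, DESeq2 adjusted p = 0.0713). The RNA helicase genes Ifih1 (MDA5), Ddx58 (RIG-I) and Dhx58 (LGP2) had log2 fold changes of -0.37, -0.12 and -0.28, and none passed the test. Trim25, a ubiquitin ligase that acts on RIG-I, went the other way at 0.18.

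Of 7 genes of the OAS family and PKR, which detect double-stranded RNA and stop translation or degrade RNA, all 7 were lower in Van by their fitted value (51.2% of all genes) and none was called (4.33% of all genes). Oasl2, which encodes an OAS-like protein with a ubiquitin-like tail, was the highest of them. It was at 50.6, 59.5 and 55.9 FPKM in Con, 41.4, 40.9 and 50.3 in Van and 34.5, 37.8 and 59.5 in VanLip. The Van libraries lay just below the Con libraries, with a log2 fold change of -0.36 (SE 0.17, DESeq2 adjusted p = 0.27). Oas3 and Eif2ak2, which encodes PKR, had values of -0.29 and -0.20, and Oas2 was nearest to 0 at -0.03. Oas1a and Oas1g are near copies whose reads may be shared between them.

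The IFIT proteins bind viral RNA that lacks the host cap, and their genes are among the most inducible by interferon. Ifit3 was at 25.0, 28.5 and 30.4 FPKM in Con, 19.4, 19.5 and 16.3 in Van and 13.2, 16.7 and 38.0 in VanLip. Its log2 fold change for Van against Con was -0.62 (SE 0.41, DESeq2 adjusted p = 0.539). Ifit2 was at 13.3, 11.3 and 14.0 in Con, 8.76, 7.62 and 6.81 in Van and 6.45, 7.33 and 15.8 in VanLip, with a log2 fold change of -0.75 (SE 0.37, DESeq2 adjusted p = 0.318). In both genes all Van libraries were below all Con libraries, and the wide spread lay within VanLip. Of the 7 genes of this role, 6 lay lower in Van without overlap, against 9.80% of all genes. They include Rsad2 (viperin) at -0.50 and its genomic neighbour Cmpk2 at -0.36, while the exonuclease gene Isg20 did not move in value (0.00).

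**Figure D2:**
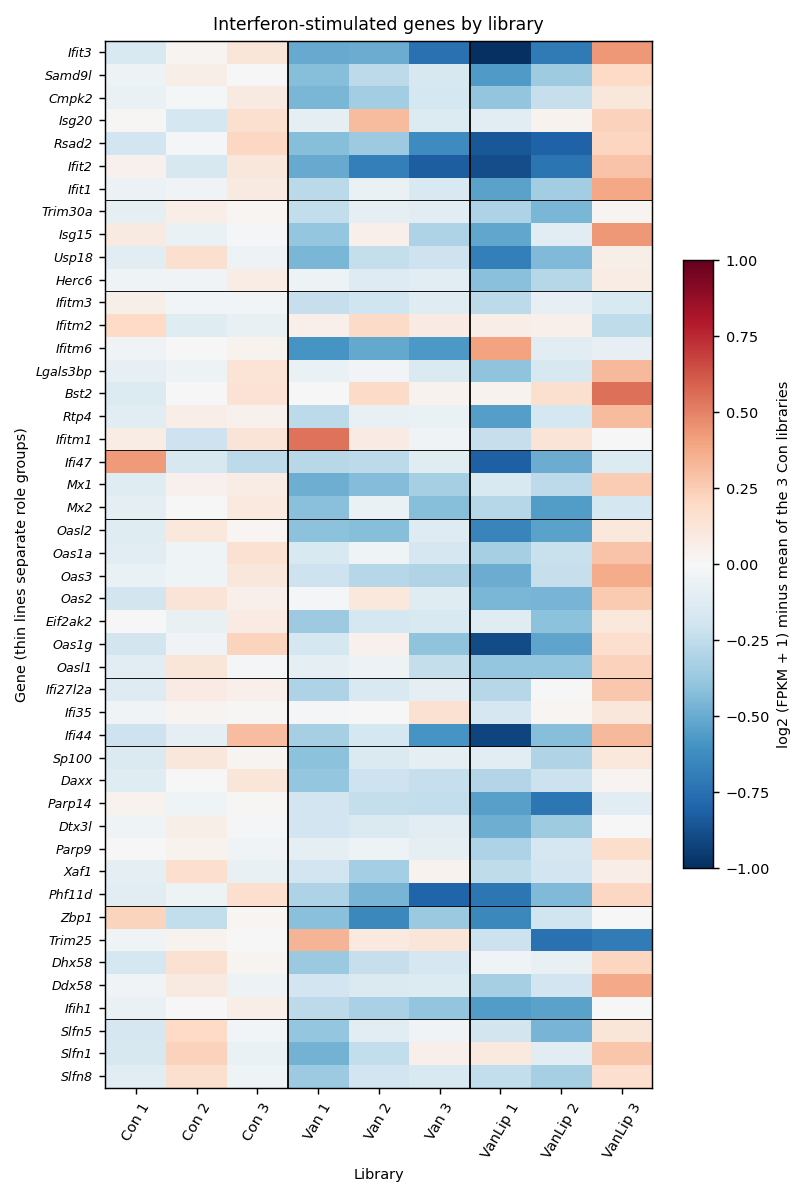
Heat map of the 46 interferon-stimulated genes (rows, grouped by role) in 9 libraries (columns), with color giving log2 (FPKM + 1) minus the mean of the 3 Con libraries, blue for lower and red for higher, limited to 1 in either direction. The 3 Van columns are mostly pale blue, VanLip 1 and VanLip 2 are mostly blue, and VanLip 3 is mostly red, with Ifitm6, Ifitm2, Ifitm1 and Trim25 as rows that differ.

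In ISG15 conjugation a ubiquitin-like protein is attached to other proteins. The role that joins its genes Isg15, Usp18 and Herc6 with the TRIM ligase gene Trim30a had a median log2 fold change of -0.18 for Van against Con. Isg15 itself was at 26.6, 23.8 and 24.7 FPKM in Con, 18.9, 26.0 and 20.0 in Van and 17.1, 23.1 and 34.1 in VanLip, and the groups overlapped. Usp18, which removes ISG15 and dampens signalling at Ifnar2, was at 14.1, 17.1 and 14.6 in Con, 10.8, 12.7 and 13.1 in Van and 9.10, 10.9 and 15.9 in VanLip, with a log2 fold change for Van against Con of -0.33 (SE 0.18, DESeq2 adjusted p = 0.381). Trim30a, a negative regulator of TLR signalling, was at 55.7, 62.2 and 59.9 in Con, 49.8, 55.1 and 54.9 in Van and 47.7, 42.8 and 60.2 in VanLip. Its log2 fold change was -0.14 (SE 0.12, DESeq2 adjusted p = 0.68). Van lay below Con without overlap in Usp18, Trim30a and Herc6 of these 4 genes (9.80% of all genes), and none was called.

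Among the PARP and nuclear proteins, all 7 were lower in Van by their fitted value, 5 of them without overlap with Con (9.80% of all genes), and none was called (4.33% of all genes). Phf11d, a PHD-finger gene with near copies in its cluster, had the largest value. It was at 10.2, 10.7 and 12.6 FPKM in Con, 8.79, 7.81 and 5.96 in Van and 6.34, 7.95 and 13.01 in VanLip, with a log2 fold change for Van against Con of -0.56 (SE 0.23, DESeq2 adjusted p = 0.165). Sp100, a nuclear body protein and the highest of this role, was at 131, 157 and 148 in Con, 109, 131 and 135 in Van and 133, 117 and 156 in VanLip. Its log2 fold change was -0.22 (SE 0.11, DESeq2 adjusted p = 0.342), and the groups overlapped. Dtx3l and Parp9, which act as a pair and lie head to head with overlapping transcripts on opposite strands, had values of -0.17 and -0.09.

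The Schlafen genes Slfn5 and Slfn8, which act on cell growth and RNA, had log2 fold changes of -0.18 and -0.27 for Van against Con with standard errors of 0.15 and 0.15 (DESeq2 adjusted p = 0.667 and 0.386). Slfn5 was at 60.5, 78.5 and 66.8 FPKM in Con, 52.0, 62.9 and 66.5 in Van and 60.03, 49.2 and 74.1 in VanLip. Slfn8 was at 17.9, 21.9 and 18.9 in Con, 15.0, 17.0 and 17.5 in Van and 16.3, 15.3 and 22.1 in VanLip. Van and Con overlapped in Slfn5 and did not overlap in Slfn8. Ifi47 was at 63.8, 42.2 and 39.2 in Con, 38.8, 39.3 and 43.3 in Van and 26.4, 33.3 and 42.9 in VanLip. Its log2 fold change for Van against Con was -0.29 (SE 0.19, DESeq2 adjusted p = 0.535), and it rested on the first Con library, since it was -0.04 without that library.

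The membrane and secreted proteins were the most mixed, with 4 of 7 lower and 3 higher in Van. Ifitm3 was at 1357, 1275 and 1275 FPKM in Con, 1109, 1136 and 1195 in Van and 1087, 1227 and 1168 in VanLip. Con was above both other groups without overlap, by a log2 fold change of -0.20 for Van against Con (SE 0.07, DESeq2 adjusted p = 0.0678). The tetherin gene Bst2, which holds budding virus at the cell surface, and Ifitm1 and Ifitm2 had positive values of 0.06, 0.22 and 0.09. Of the 4 Ifitm genes, Ifitm6 had the most negative log2 fold change and was the only one called. Ifi27l2a, a small mitochondrial protein, was at 302, 349 and 343 in Con, 267, 298 and 309 in Van and 272, 332 and 399.8 in VanLip, with a log2 fold change for Van against Con of -0.20 (SE 0.13, DESeq2 adjusted p = 0.516). Ifi44, a microtubule-associated protein, was at 1.498, 1.68 and 2.55 in Con, 1.28, 1.55 and 0.910 in Van and 0.522, 1.14 and 2.61 in VanLip. Its log2 fold change was -0.63 (SE 0.57, DESeq2 adjusted p = 0.723), at the lowest level of all members.

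One library stood apart in these genes. The third VanLip library was the highest of all 9 in 25 of 46 members, against 10.1% of 13503 genes, and above both other VanLip libraries in 41, against 32.0%. The first VanLip library was the lowest of all 9 in 24 members, against 14.0% of genes. The median ratio of VanLip 3 to the mean of VanLip 1 and VanLip 2 was 1.40 over the members and 0.988 over all genes, and reached 3.13 in Ifi44, 2.55 in Ifit3, 2.30 in Ifit2 and 2.199 in Rsad2. The median within-group SD of log2 (FPKM + 1) over the members was 0.29 in VanLip, 0.12 in Con and 0.11 in Van, while it was 0.10, 0.10 and 0.09 over all genes. The 3 VanLip libraries therefore did not share 1 level of these genes.

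Relative to the Con mean, the members' median log2 (FPKM + 1) was -0.27, -0.16 and -0.15 in the Van libraries and -0.36, -0.30 and 0.17 in the VanLip libraries. VanLip 1 and VanLip 2 were both below every Con library in 35 of 46 members, against 16.03% of all genes, and both below every Van library in 16, against 18.7%. VanLip 3 was above every Con library in 27 members, against 31.8% of genes, and above every Van library in 38, against 31.9%. Of marker lists, the plasmacytoid dendritic cell sum was 14.1 FPKM in VanLip 3 and 4.69 to 9.95 elsewhere, of which Klk1 made up 8.98 and the defining gene Siglech 1.25, within the range of 0.609 to 1.69 over the 9 libraries. The erythroid sum was 602 in VanLip 3 and 639.6 in VanLip 2. The red pulp macrophage sum was 650 in VanLip 1, 803 in VanLip 2 and 912 in VanLip 3, the same order as the members' medians. VanLip 3 was also the highest of the 9 libraries in the B cell and T cell sums, at 12.4 and 3.90 FPKM. The part of any of these in the difference was not tested.

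**Figure D3:**
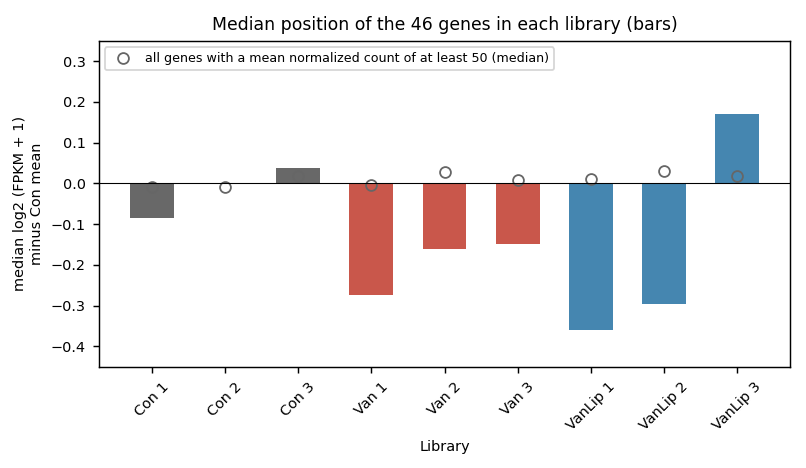
Median over the 46 interferon-stimulated genes of log2 (FPKM + 1) minus the Con mean (vertical axis) in each library (horizontal axis, bars), with open circles for the median over all genes whose normalized counts averaged 50 or more. The Van bars lie between -0.27 and -0.15, VanLip 1 and VanLip 2 at -0.36 and -0.30, and VanLip 3 at 0.17, while every circle is near 0.

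Vancomycin and L654 together were then set against water. By fitted value 41 of 46 members were lower in VanLip and the median was -0.18, against 0.01 for all genes tested, of which 48.5% were lower. Trim25 and Parp14 fell and no member rose, so that 2 of 46 were called in DESeq2, against 6.67% of genes called and 3.69% called lower. Every VanLip library lay below every Con library in 4 members (Trim25, Parp14, Ifitm3 and Mx2), against 9.72% of genes, and above in 0, against 14.2%. The edgeR test called 0 of the members (1.78% of all genes called), with 7 at an unadjusted p under 0.05 (17.8% of all genes) against 9 in DESeq2 (18.6% of all genes), and gave adjusted p of 0.0772 for Trim25 and 0.103 for Parp14.

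Trim25 (ENSMUSG00000000275, chromosome 11, 88999376 to 89020293, plus strand) was at 58.5, 61.7 and 59.8 FPKM in Con, 76.2, 64.2 and 65.2 in Van and 51.6, 35.4 and 36.7 in VanLip. The groups did not overlap in any pair, with Van highest and VanLip lowest. The log2 fold change for VanLip against Con was -0.56 (SE 0.14, DESeq2 adjusted p = 0.0023). VanLip 3 was not raised in this gene.

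Parp14 (ENSMUSG00000034422, chromosome 16, 35832874 to 35871544, minus strand) encodes a macrodomain protein that transfers ADP-ribose and modulates interferon and interleukin responses. It was at 46.3, 43.6 and 45.4 FPKM in Con, 39.3, 38.1 and 38.0 in Van and 30.6, 27.0 and 41.6 in VanLip. Con was above all other libraries, and VanLip lay on both sides of Van. The log2 fold change for VanLip against Con was -0.48 (SE 0.13, DESeq2 adjusted p = 0.0103), and its adjusted p was 0.0762 without Con 1 and 0.0723 without VanLip 2. A predicted gene overlaps Parp14 on the same strand and can exchange reads with it. Ifit3, Ifit2 and Oasl2 had log2 fold changes for VanLip against Con of -0.32, -0.40 and -0.33 with standard errors of 0.41, 0.37 and 0.17, and none passed the test.

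Leaving out 1 library at a time changed these counts most at VanLip 3. Without it DESeq2 called 29 of 46 members for VanLip against Con, all lower, where 4.61% of all genes tested were called lower, and the members' median was -0.38. The largest values were -1.18 for Ifi44, -0.93 for Rsad2, -0.92 for Ifit3 and -0.92 for Ifit2 (DESeq2 adjusted p = 0.0123, 3.34e-11, 6.74e-10 and 1.49e-09). The lowest adjusted p was that of Parp14 at 3.12e-14, with a log2 fold change of -0.68, followed by Ifih1 at 1.39e-11 with -0.59. All 7 OAS family and PKR genes were called, as were the sensors Ifih1 and Ddx58, whereas Isg15, Mx1, Zbp1, Sp100, Bst2 and the 4 Ifitm genes were not. Without any other library the count was between 1 and 3. VanLip 3 was singled out by its level in these genes, so the 29 describe the other 2 VanLip libraries and are no independent support for a fall.

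The calls for Van against Con also changed when this library, which is in neither group, was left out. Without VanLip 3 the Van libraries were lower than Con in 14 called members and higher in 0, where 3.19% of genes tested were called lower. The members' median standard error went from 0.15 to 0.10, while that of all genes stayed at 0.13, and the median log2 fold change was -0.21 in both fits. Members at an unadjusted p under 0.05, which independent filtering does not alter, went from 12 to 24 (14.9% and 18.2% of genes tested). The genes tested after independent filtering also changed, from 18526 to 12819, and the part of each in the calls was not tested. A fit of only the Con and Van libraries, which uses none of the VanLip libraries, also called 14 members, all lower (4.24% of all genes called lower), 13 of them in common with the fit without VanLip 3. These 13 were Ifitm6, Mx1, Ifit2, Ifit3, Ifih1, Oasl2, Oas3, Rsad2, Zbp1, Parp14, Cmpk2, Samd9l and Phf11d. Without VanLip 1, 6 members were called, all lower (3.07% of genes). In the fit of Con and Van alone the adjusted p was 1.16e-07 for Ifit2 and 1.15e-06 for Ifit3, with log2 fold changes of -0.75 and -0.61, and in the fit of all 9 libraries 0.318 and 0.539, with -0.75 and -0.62.

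**Figure D4:**
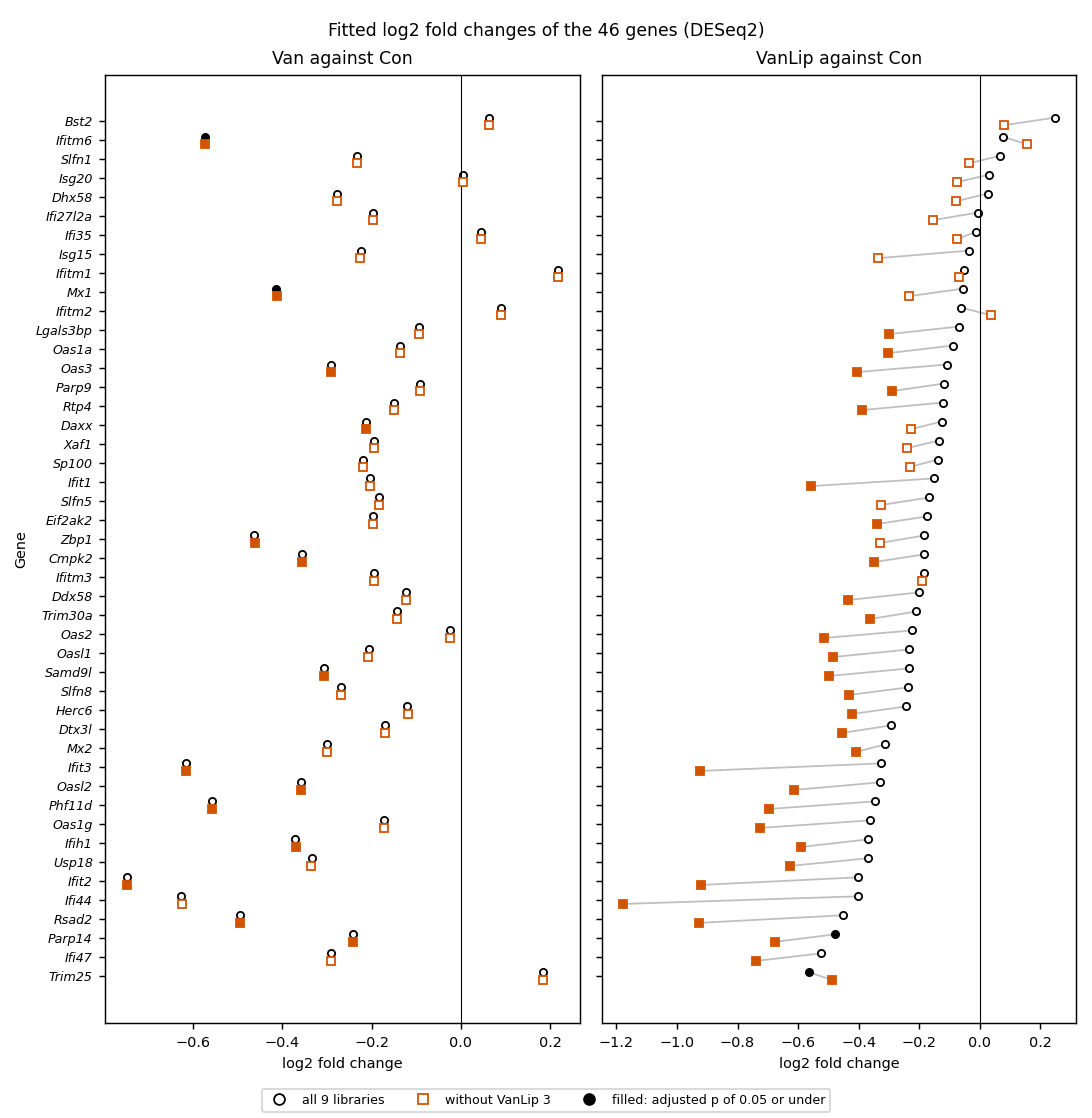
DESeq2 log2 fold changes (horizontal axes) of the 46 interferon-stimulated genes (rows, ordered by VanLip against Con) for Van against Con (left) and VanLip against Con (right). Circles are fits of all 9 libraries, squares fits without VanLip 3, and filled symbols have an adjusted p of 0.05 or under. For Van against Con the symbols coincide in value and 14 squares are filled against 2 circles, whereas for VanLip against Con most squares lie left of their circles and 29 are filled against 2.

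What L654 added after vancomycin was read from VanLip against Van. The members were split, with 30 higher and 16 lower in VanLip and a median of 0.03, against 0.01 for all genes tested, of which 48.1% were lower. The split was 24 higher and 22 lower with a replicate block in DESeq2, and 23 and 23 in limma on log2 (FPKM + 1). Ifitm6 rose and Trim25 fell, so that 2 of 46 were called, against 9.85% of all genes tested. VanLip lay above Van without overlap in Ifitm6, Mx1 and Dhx58, against 14.3% of genes, and below in Trim25, against 13.3%. The edgeR test called 2 of 46 as well (5.07% of all genes called).

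Ifitm6 had a log2 fold change of 0.65 (SE 0.13, DESeq2 adjusted p = 2.48e-05), and its VanLip mean of 375 ± 79.3 FPKM (SD, n = 3) included VanLip 1 at 467 against 326 and 333. Without VanLip 1 the log2 fold change was 0.45 (DESeq2 adjusted p = 4.22e-12). The summed FPKM of 6 classical monocyte markers was 875 to 1127 in Con, 784 to 1412 in Van and 1161 to 1871 in VanLip, with the highest value in VanLip 1. Whether the share of classical monocytes bears on Ifitm6 was not tested. Trim25 had a log2 fold change of -0.75 (SE 0.14, DESeq2 adjusted p = 5.15e-06), the largest value of any member in this comparison.

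This comparison turned with the library left out. Without VanLip 3 the members' median was -0.17 and DESeq2 called 12 members, of which 11 were lower (5.58% of genes tested were called lower), among them Parp14 at -0.44, Oas2 at -0.49 and Rsad2 at -0.43. Without VanLip 1 the median was 0.12 and 5 members were called (8.21% of genes), with Mx1, Zbp1, Ifi27l2a and Ifitm6 higher and Trim25 lower. Ifitm6 and Trim25 were called in both fits and in the same direction.

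The members varied together over the 9 libraries, as a description with groups, depth and libraries shared by all of them. The median Pearson r over pairs of members was 0.62, with 0.92 over the 3 pairs of Ifit1, Ifit2 and Ifit3, 0.87 over Oas1a, Oas1g, Oas2 and Oas3, and 0.89 over Parp9, Parp14 and Dtx3l. Ifit3 and Rsad2 were most like the mean of the other members, with r of 0.98 and 0.97. The 4 Ifitm genes did not follow each other, with a median r of -0.07, and Ifitm2, Trim25, Ifitm1 and Ifitm6 had the lowest r with the other members at -0.64, -0.15, -0.10 and 0.03. Promoters gave no such split, since VanLip 3 was highest of its group in 14 of 16 members with the repeat and in 17 of 20 without it, and the median log2 fold changes for Van against Con were -0.20 and -0.22.

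The interferon pathway was read from a list of 25 genes for ligands, receptors, kinases, factors, sensors and feedback. Ligand transcripts were at or near 0: Ifna1, Ifna2, Ifna4 and Ifng were listed at 0 in every library, and Ifnb1, which encodes interferon beta, was above 0 in 2 libraries only, at 0.0696 FPKM in Con 3 and 0.0472 in Van 3. The receptor genes were present, with Ifnar1 at 30.04 ± 2.53, 33.5 ± 0.502 and 33.5 ± 2.11 FPKM in Con, Van and VanLip and Ifnar2 at 62.6 ± 3.59, 63.7 ± 2.35 and 61.8 ± 3.09 (SD, n = 3 each). Neither was called in any comparison. Of 20 pathway genes with an adjusted p in each comparison, 1 was called between Van and Con (5.00%, against 4.33% of all genes), 3 between VanLip and Con (15.0%, against 6.67%) and 2 between VanLip and Van (10.0%, against 9.85%), and edgeR called 0, 0 and 2, with 3, 5 and 2 at an unadjusted p under 0.05 (14.7%, 17.8% and 21.0% of all genes).

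Of the factors, Stat2 was at 33.0, 28.6 and 30.9 FPKM in Con, 24.8, 25.0 and 27.3 in Van and 19.7, 19.6 and 27.5 in VanLip. Van lay below Con without overlap, as did VanLip, and VanLip 3 was the highest of its group. Stat2 fell in VanLip against Con with a log2 fold change of -0.49 (SE 0.13, DESeq2 adjusted p = 0.00544), a call that was lost without Con 1 (adjusted p = 0.0711), without VanLip 2 (0.0629) and in edgeR (0.0857). Con 1 stood apart in Ifi47 and in Irf1, a factor of the interferon gamma response that was at 218 in Con 1 and 113 to 140.2 elsewhere and was named after its values were seen. Irf7, which amplifies interferon production, was at 111, 114 and 114 in Con, 103, 91.3 and 99.7 in Van and 76.2, 93.6 and 117 in VanLip, whereas Irf9 stayed between 36.1 and 40.9 in all libraries. Neither Irf7 nor Irf9 was called, while without VanLip 3 Irf7 was called lower for VanLip against Con. Irf7 lay lower in every Van library than in every Con library, and the fit of Con and Van alone called it and Stat2 lower in Van (DESeq2 adjusted p = 0.0366 and 0.0115). Without VanLip 3 Stat2 was called lower in Van as well (DESeq2 adjusted p = 0.0138), and Irf7 was not (0.162).

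Mavs, the mitochondrial adaptor through which RIG-I and MDA5 signal, was at 8.73, 12.6 and 9.77 FPKM in Con, 13.05, 16.03 and 15.1 in Van and 10.4, 9.78 and 10.9 in VanLip. Van was above both other groups, with log2 fold changes of 0.51 over Con and -0.51 from Van to VanLip, each with an SE of 0.13 (DESeq2 adjusted p = 0.00627 and 0.00227). Leaving out Con 1, Con 3, Van 2 or Van 3 ended the call over Con (DESeq2 adjusted p between 0.0544 and 0.085), and edgeR did not make it (adjusted p = 0.0906). Ptpn6, which encodes the phosphatase SHP-1 and restrains signalling, was at 227, 229 and 249 in Con, 213, 218 and 213 in Van and 261, 307 and 303 in VanLip. It rose in VanLip against both other groups, by log2 fold changes of 0.29 against Con and 0.44 against Van with standard errors of 0.07 (DESeq2 adjusted p = 0.00175 and 6.61e-08), and the first had an edgeR adjusted p of 0.0507. Ifngr1, a chain of the interferon gamma receptor, rose in VanLip against Con by 0.19 (SE 0.05, DESeq2 adjusted p = 0.0114), from 310.0, 317 and 335 FPKM to 376, 377 and 359. That call was lost without Con 1, Con 2, VanLip 1 or VanLip 2 (DESeq2 adjusted p between 0.0839 and 0.127), with the replicate block (0.0848), in the fit of these groups alone (0.0549) and in edgeR (0.0923).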

How the data were processed

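RNA of splenic monocytes was sequenced in 9 libraries, with 3 in every group (Con, Van, VanLip), as given by the sample titles. The deposited values were expected counts and FPKM per gene, made by the authors with HISAT2 2.2.1, SAMtools 1.9 and StringTie 2.1.3 on GRCm38. The authors derived the counts from StringTie's values with tximport and tested them with DESeq2 1.38.3. The annotation release and the strand setting of the counting are not given in the sources used here, so reads of antisense or overlapping genes (Dtx3l with Parp9, Parp14, Herc6, Rtp4, Ifi47, Ifitm2, Dhx58, Slfn5) and of near copies (the Ifit, Ifitm, Oas1, Slfn and Phf11 families) may be shared. Gene coordinates are those of the GENCODE annotation of GRCm38 and promoters those of RefSeq on GRCm38.p6.

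The deposited expected counts were rounded and tested with DESeq2 1.42.0 in R 4.3.3 (Wald test), with Benjamini-Hochberg adjustment over all genes and a call at an adjusted p of 0.05 or under, as the study states. All 9 libraries were fitted together with group as the only term, which was chosen here, since the study's model is not given in the sources used here. FPKM was used for levels per library, and as log2 (FPKM + 1) for distances from the Con mean. Shares over all genes without overlap were taken over 13503 genes whose normalized counts averaged 50 or more. Alternatives were edgeR 4.0.16, limma 3.58.1, other scalings and filters, each pair of groups alone, a replicate block and each library left out. The scripts were tested on simulated data. Totals of the expected counts were 43070361 to 61383806 in Con and Van and 170503470 to 184720704 in VanLip.

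The 46 members, the pathway genes and the marker lists were chosen with earlier results of these data known. Values per library are given for up to 6 called members per comparison with the lowest adjusted p, for the highest member of each role and the member with the largest absolute log2 fold change (Van against Con, normalized counts averaging 50 or more), and for set pathway genes and any called one. One result of the pathway list is not reported here. Other genes with values per library (Isg15, Irf1) were chosen after their values were seen.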

Additional observations from a re-analysis of the deposited data

How the results depend on the processing

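The count of called members changed with the test and with the libraries in the fit. For Van against Con, DESeq2 called 2 of 46 members, edgeR 0 (11 at an unadjusted p under 0.05), limma 0 on log2 (FPKM + 1), on log2 (FPKM + 0.1) and over genes averaging 1 FPKM or more (8, 7 and 11 at an unadjusted p under 0.05), where these limma fits called 0.352%, 0.0651% and 0.769% of all genes, DESeq2 without independent filtering 1 and DESeq2 on the 2 groups alone 14. For VanLip against Con the count was 2, and 0 in edgeR (7) and in the 3 limma fits (6, 7 and 7), which called 0.908%, 0.643% and 2.89% of all genes. For VanLip against Van it was 2, and 0 in limma with either pseudocount (4 and 3), which called 2.64% and 1.98% of all genes. Leaving out 1 library gave 1 to 14, 1 to 29 and 2 to 12 members, with the highest counts without VanLip 3, and medians of the log2 fold change from -0.24 to -0.16, -0.38 to -0.10 and -0.17 to 0.13. Pathway genes called were 1, 3 and 2 in the 3 comparisons, 0, 0 and 2 in edgeR, 0, 0 and 1 in each limma fit, 3 for Van against Con on the 2 groups alone, and 0 to 2, 1 to 5 and 2 to 3 with 1 library left out. The cause of these differences was not tested. With TMM library sizes, counts converted to fragments, VanLip thinned to the depth of the other libraries and a minimum of 10 counts in 3 libraries, the members called were 2 or 3 in each comparison. For 31 single-gene values under the 11 settings that keep all libraries of a comparison, 292 stayed on their side of the threshold, 42 lost it and 7 gained it, and 0 turned sign in these or when 1 library was left out. Only values called in the fit of all 9 libraries could lose a call. These were 2, 2 and 2 members and 1, 3 and 2 pathway genes in the 3 comparisons. The 292 include values that were not called in either fit, so they do not measure how stable the calls were.

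Over 13503 genes, the deviations of libraries that share a replicate number had correlations of -0.06 to 0.12. In the members, the first replicate was below both others of its group in 34 (Con), 24 (Van) and 31 (VanLip) of 46. The shares over all genes were 37.8%, 40.4% and 37.6%. The third replicate was above both others in 21, 20 and 41 members, against 39.6%, 31.4% and 32.0% of all genes. Whether the shared numbers pair the libraries was not tested. With a replicate block DESeq2 called 3, 2 and 3 members and 1, 2 and 2 pathway genes for Van against Con, VanLip against Con and VanLip against Van, where 3.66%, 4.50% and 6.71% of all genes were called. Members at an unadjusted p under 0.05 were then 18, 14 and 6 (10.7%, 12.5% and 15.6% of all genes). Without the block they were 12, 9 and 4 (14.9%, 18.6% and 20.9% of all genes).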
